A study of Mus musculus with 4 samples.

Results

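The transcripts of 10 enzymes of sphingolipid and ceramide metabolism were examined by RNA sequencing of 4 livers, each from a male mouse of the C57BL/6J strain at 18 weeks of age. The genes were chosen by symbol (Sptlc1, Sptlc2, Cers2, Cers4, Cers6, Degs1, Asah1, Smpd1, Sgms1 and Ugcg), and all 10 were found among the 24138 rows of the deposited table, each in 1 row. Per the labels, every animal had been fed the FAT-MASH diet (MASH stands for metabolic dysfunction-associated steatohepatitis) and had been treated with resolvin D1 (RvD1), a lipid mediator that acts in the resolution of inflammation. The animals form 1 group, called livers 1 to 4 after the labels, and no livers without the diet or without RvD1 were analysed here. The values therefore describe levels in treated animals and their spread, and no effect of diet or of RvD1 can be read from them. Each value is an FPKM, a fragment count scaled by transcript length and library size, so levels can be compared between genes of different length. The 10541 genes whose mean reached 1 FPKM are called expressed. Of the 10 enzymes, 9 passed this limit and Cers4 did not, and all 10 are described.

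Sphingolipids are membrane and signalling lipids built on a long-chain base. Serine palmitoyltransferase, in the endoplasmic reticulum, condenses serine with palmitoyl-CoA. Ceramide synthases then add a second fatty acid and dihydroceramide desaturase introduces a double bond, which yields ceramide. Ceramide is turned into sphingomyelin or glucosylceramide in the Golgi, and is set free again by sphingomyelinases or broken down to sphingosine by ceramidases. In liver, ceramides are known for their link to insulin resistance and to steatosis, and the length of the added fatty acid, which differs between the ceramide synthases, is known to matter for these links.

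The depth of the libraries was estimated at 18800000 to 20100000 fragments, too close to rank them, and 1 fragment on a transcript of 1 kb was worth about 0.0496 to 0.0531 FPKM. Of 8 hepatocyte markers, 7 were present in all livers and Alb was listed at 0 in all of them, so a listed 0 need not mean absence. Livers 2, 3 and 4 each stood apart in a measure outside the sphingolipid genes. The summed level of 4 acute phase genes was 423, 5190, 179 and 379 FPKM in livers 1 to 4, highest in liver 2. In liver 3, transcripts rich in G and C were high and those poor in them were low, as given in detail below. In liver 4 the FPKM summed to 570681, against 516816 to 524394 in the others, and 60.8% of expressed genes were above their means. Ratios and medians over the enzymes that turn on 1 of these livers are given with and without it.

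Cers2 was by far the most abundant of the 10 transcripts, at 159 ± 15.8 FPKM (SD, n = 4), a level above that of 95.1% of expressed genes. Degs1 followed at 42.7 ± 4.79 FPKM, Smpd1 at 22.8 ± 3.09 FPKM and Asah1 at 19.8 ± 4.07 FPKM (each SD, n = 4). Sptlc1 had 12.98 ± 0.441 FPKM, Ugcg 8.30 ± 1.29 FPKM, Sptlc2 6.36 ± 0.612 FPKM and Sgms1 6.06 ± 1.55 FPKM (each SD, n = 4). Cers6 and Cers4 were lowest, at 1.71 ± 0.296 and 0.864 ± 0.136 FPKM (each SD, n = 4). The median of the 10 means was 10.6 FPKM, against 7.83 FPKM over all expressed genes. Along this order the livers' ranges overlapped for 3 of the neighbouring pairs. Smpd1 was above Asah1 in 3 of 4 livers, and Sptlc2 was above Sgms1 in 2 of 4, so neither of these orders was shared by all animals. The ranges of Ugcg and Sptlc2 overlapped, although Ugcg was the higher in 4 of 4 livers. The other neighbours did not overlap, with ratios of their means from 1.52 for Asah1 over Sptlc1 to 3.72 for Cers2 over Degs1.

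**Figure D1:**
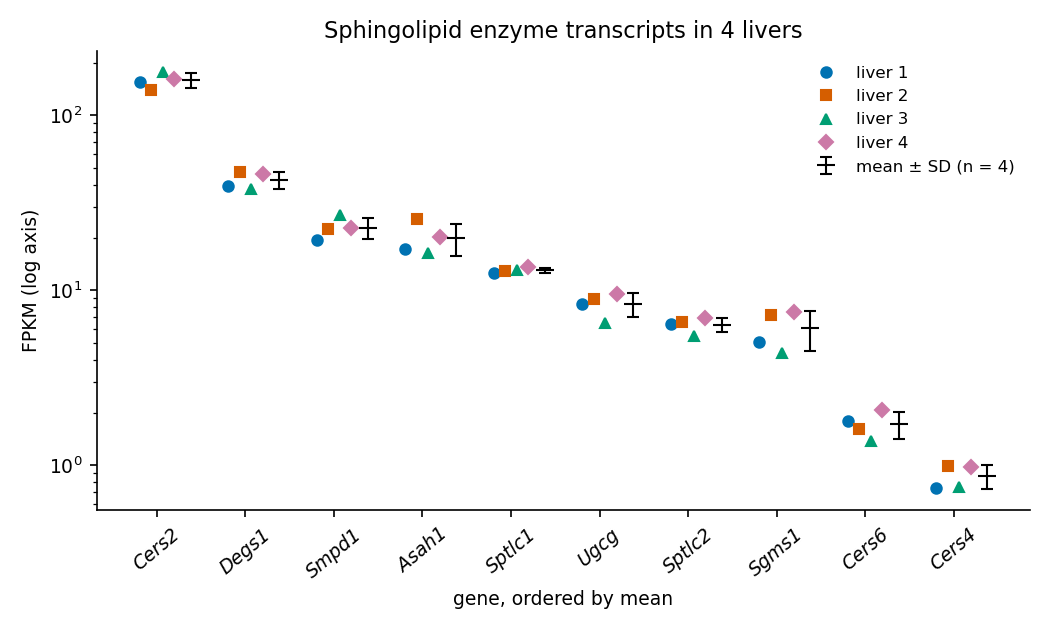
Level of the 10 enzyme transcripts in each liver, in FPKM on a log axis, ordered by mean. Each symbol is 1 liver, and the bar beside them is the mean with its SD (n = 4). Cers2, between 139.5 and 178 FPKM, lies above all the others, and Cers4, between 0.739 and 0.983 FPKM, lies lowest.

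De novo synthesis begins with serine palmitoyltransferase, a complex whose catalytic core pairs Sptlc1 with Sptlc2 or Sptlc3. Sptlc1 (XLOC_005740, chromosome 13, 53332748 to 53377361) was at 12.5, 12.8, 12.97 and 13.6 FPKM in livers 1 to 4. These values lie close together, with a 1.08-fold range, and only 2.35% of expressed genes had a smaller SD of log2(FPKM + 1) than its 0.05. Sptlc2 (XLOC_004958, chromosome 12, 87307889 to 87388230) was at 6.45, 6.59, 5.49 and 6.91 FPKM, lowest in liver 3. Within each liver the ratio of Sptlc2 to Sptlc1 was 0.515, 0.513, 0.423 and 0.509. Livers 1, 2 and 4 were nearly equal in this ratio and liver 3 was below them. The mean log2 ratio was -1.03 ± 0.14 (SD, n = 4), and -0.96 without liver 3. Sptlc3 was listed at 0 in all 4 livers.

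Ceramide synthases differ in the length of the fatty acid they attach. Cers2 favours very long chains and is the main ceramide synthase of liver, Cers4 favours long chains, and Cers5 and Cers6 favour palmitoyl chains. Cers2 (XLOC_013381, chromosome 3, 95315252 to 95357202) was at 155.5, 139.5, 178 and 162 FPKM in livers 1 to 4, highest in liver 3 and lowest in liver 2. The span given for it is also that of Setdb1, which had 4.16 ± 0.806 FPKM (SD, n = 4), and in GENCODE the oppositely oriented genes overlap by 75 bases at their ends. Whether the library kept strand is not given in the sources used here. Cers6 (XLOC_011360, chromosome 2, 68861557 to 69111290) was at 1.79, 1.60, 1.37 and 2.08 FPKM, highest in liver 4 and lowest in liver 3. Cers4 (XLOC_020504, chromosome 8, 4493405 to 4526079) was at 0.739, 0.983, 0.753 and 0.981 FPKM. Livers 2 and 4 were alike and above livers 1 and 3, which were also alike. Cers5 had a mean of 2.18 FPKM, and Cers3 was listed at 0 in 3 livers and at 0.0360 FPKM in liver 3. Cers1 was not analysed here.

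Of the summed FPKM of Cers2 to Cers6, Cers2 made up 97.0%, 96.3%, 97.9% and 96.9% in livers 1 to 4. The mean share was 97.04 ± 0.663% (SD, n = 4), so the share of Cers2 was alike in each liver. The shares of the other synthases were small and varied more for their size, with Cers5 from 0.905% in liver 3 to 1.93% in liver 2. Cers5 accounted for 1.36 ± 0.426%, Cers6 for 1.06 ± 0.208% and Cers4 for 0.535 ± 0.120% (each SD, n = 4). The ratio of Cers2 to Cers6 was 87.0, 87.0, 129 and 78.0 in livers 1 to 4, highest in liver 3. Its mean log2 value was 6.55 ± 0.32 (SD, n = 4), and 6.39 without liver 3.

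Windows before annotated starts are shown for the 3 ceramide synthases among the 10 genes, because these paralogues lay furthest apart in level. A window of Degs1, which acts on their products, is shown because that transcript was the second most abundant. Each window holds the 250 bases before an annotated RefSeq start (GRCm38.p6), 5′ to 3′ on the gene's own strand. That start need not be the outermost of the gene. The Degs1 window lies within the span listed for Degs1, whose upstream end is at 182282759. The Cers2 and Cers4 windows lie within the GENCODE genes, which start at 95314791 and 4493026. The table of starts matched 9 of the 10 enzymes with 13 windows. Cers2 has another start, whose window (chr3:95318580-95318829) held none of the motifs below and is not shown. Capitals mark 4 motifs, searched on both strands: CACGTG (an E-box), GGGCGG (a GC box), CCAAT and TATAAA.

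Cers2, chr3:95314940-95315189, plus strand: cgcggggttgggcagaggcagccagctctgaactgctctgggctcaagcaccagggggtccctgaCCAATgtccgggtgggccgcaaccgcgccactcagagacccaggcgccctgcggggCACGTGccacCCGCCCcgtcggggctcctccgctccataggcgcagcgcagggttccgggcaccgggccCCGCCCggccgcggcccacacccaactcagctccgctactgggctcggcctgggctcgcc

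Cers6, chr2:68861191-68861440, plus strand: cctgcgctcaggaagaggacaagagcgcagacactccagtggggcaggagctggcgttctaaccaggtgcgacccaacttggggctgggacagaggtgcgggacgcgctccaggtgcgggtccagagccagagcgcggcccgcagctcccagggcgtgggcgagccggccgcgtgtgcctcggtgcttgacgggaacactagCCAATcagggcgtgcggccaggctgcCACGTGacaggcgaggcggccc

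Cers4, chr8:4493155-4493404, plus strand: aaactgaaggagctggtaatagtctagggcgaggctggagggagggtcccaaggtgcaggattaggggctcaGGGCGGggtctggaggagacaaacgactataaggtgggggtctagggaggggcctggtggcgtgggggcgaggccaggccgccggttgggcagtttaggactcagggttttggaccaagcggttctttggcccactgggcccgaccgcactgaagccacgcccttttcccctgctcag

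Degs1, chr1:182282196-182282445, minus strand: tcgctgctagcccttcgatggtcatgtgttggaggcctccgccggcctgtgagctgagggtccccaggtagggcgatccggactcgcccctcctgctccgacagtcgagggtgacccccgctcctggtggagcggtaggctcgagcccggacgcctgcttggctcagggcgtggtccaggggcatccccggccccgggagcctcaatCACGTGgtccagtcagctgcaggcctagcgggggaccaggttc

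No motifs overlapped each other in these windows. CACGTG was found in 3 of the 13 windows, those of Cers2, Cers6 and Degs1 shown, against 6.02% of 32851 windows of the same length over all genes. It lay 129 bases before the RefSeq start used in Cers2, 22 in Cers6 and 43 in Degs1, counted to its first base. GGGCGG was found in 8 of the 13 windows (32.7% of all windows), CCAAT in 6 (33.8%) and TATAAA in 0 (12.4%). The windows shown for Cers2 and Cers6 share the E-box and CCAAT motifs, and these genes differed about 93.5-fold in level (geometric mean over livers). The Cers4 window held only a GC box among the motifs searched. A match describes the letters in the window and is no evidence of binding.

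Degs1 encodes the desaturase that turns dihydroceramide into ceramide. Degs1 (XLOC_001272, chromosome 1, 182275770 to 182282759) was at 39.5, 47.4, 37.7 and 46.1 FPKM in livers 1 to 4. Livers 2 and 4 were above livers 1 and 3, with a 1.26-fold range, and 48.5% of expressed genes had a smaller SD.

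Ceramide is passed on by Sgms1, the sphingomyelin synthase of the Golgi, and by Ugcg, the glucosylceramide synthase that opens the glycosphingolipid pathway. Sgms1 (XLOC_010878, chromosome 19, 32122727 to 32388454) was at 5.08, 7.23, 4.40 and 7.52 FPKM in livers 1 to 4. Livers 2 and 4 were well above livers 1 and 3, and its 1.71-fold range was the widest of the 10 enzymes. Its SD of 0.32 on the log2(FPKM + 1) scale exceeded that of 92.5% of expressed genes. Ugcg (XLOC_014376, chromosome 4, 59189550 to 59222833) was at 8.34, 8.92, 6.49 and 9.47 FPKM, lowest in liver 3. The ratio of Ugcg to Sgms1 was 1.64, 1.23, 1.47 and 1.26, so Ugcg was the higher transcript in every liver, by less in livers 2 and 4.

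The 3 expressed genes whose deviations lay nearest to those of Sgms1 over the 4 livers were Ttpa, Acot2 and Ide. Their root mean square differences from it were 0.0266, 0.0267 and 0.0279 on the log2 scale. With 4 livers such likeness is common, and 134 expressed genes lay within 0.1 of Sgms1.

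Breakdown in the lysosome was represented by Smpd1, the acid sphingomyelinase, and Asah1, the acid ceramidase. Smpd1 (XLOC_019037, chromosome 7, 105554360 to 105558389) was at 19.3, 22.2, 26.8 and 22.6 FPKM in livers 1 to 4, highest in liver 3 and lowest in liver 1. Asah1 (XLOC_021254, chromosome 8, 41340643 to 41374697) was at 17.2, 25.4, 16.4 and 20.1 FPKM, highest in liver 2 and lowest in liver 3. Its mean was 17.9 FPKM without liver 2. The SD of Asah1 (0.27) exceeded that of 86.0% of expressed genes, and that of Smpd1 (0.19) exceeded 60.7%.

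The ratio of Asah1 to Smpd1 was 0.892, 1.14, 0.611 and 0.889, above 1 in liver 2 and lowest in liver 3. The mean log2 ratio was -0.21 ± 0.37 (SD, n = 4), a spread wider than its distance from 0. It was -0.05 without liver 3 and -0.35 without liver 2. The ratio of Sgms1 to Smpd1, 1 synthase and 1 sphingomyelinase among several of each, was 0.263, 0.325, 0.164 and 0.332 in livers 1 to 4. This was the widest of the 5 ratios computed, with a 2.03-fold range, lowest in liver 3. Its mean log2 value was -1.94 ± 0.47 (SD, n = 4), and -1.71 without liver 3.

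**Figure D2:**
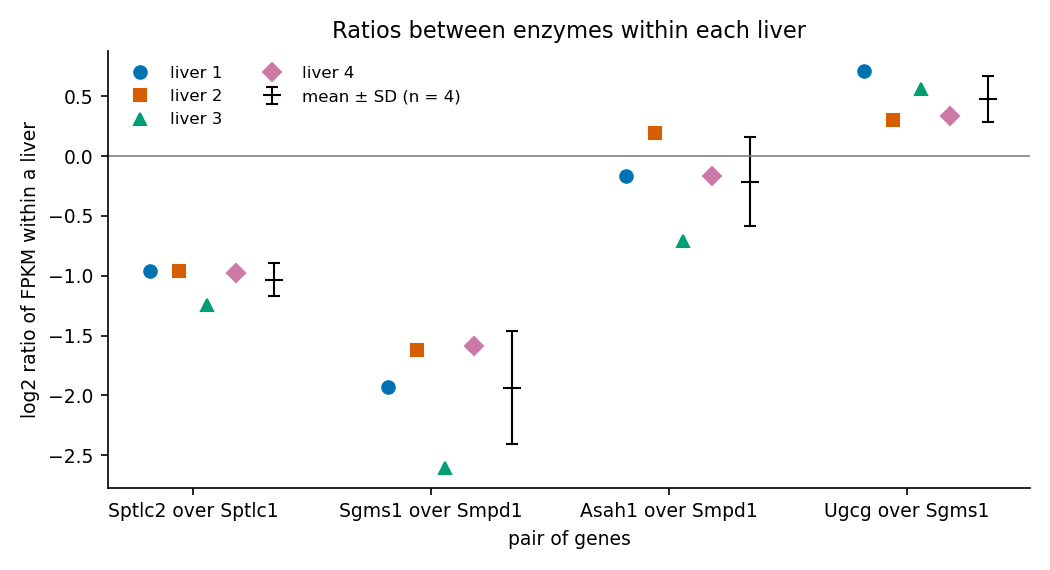
Log2 ratio of FPKM between pairs of enzymes within each liver. Symbols are livers and the bar is the mean with its SD (n = 4). Liver 3 is lowest in the first 3 pairs, at 0.423, 0.164 and 0.611 as plain ratios, and the ratio of Cers2 to Cers6, which lies far above this scale, is left out.

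The spread of the 10 enzymes between animals was near that of other genes. Their median SD of log2(FPKM + 1) was 0.16, against 0.16 over all expressed genes, and 4 of 10 lay above the latter. A highest value at least 1.5 times the lowest was found for 3 of 10 enzymes (Sgms1, Asah1 and Cers6), and for 28.4% of expressed genes. An SD below 0.1 was found for 1 of 10 enzymes, Sptlc1, and for 19.2% of expressed genes. The gap ratio is the distance of the outermost value from its neighbour over the whole range, set against Dixon's 95% critical value. It was past that value in 0 of 10 enzymes and in 5.46% of expressed genes. For 10 genes, a count of 0 is near that share. The highest gap ratio among the enzymes was 0.697, in Sptlc2. No test of the enzymes as a list was made.

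The enzymes differed among themselves in how the livers deviated from the gene mean on the log2(FPKM + 1) scale. Degs1, Asah1, Sgms1 and Cers4 lay above it in livers 2 and 4 and below it in livers 1 and 3, and the other enzymes had other patterns. In liver 4 all 10 enzymes lay above their means, by a median of 0.10, while 60.8% of expressed genes did so, with a median of 0.04. The smallest of these deviations was that of Smpd1, at 0.00. This count depended on scaling. With the libraries scaled to equal sums, 6 of 10 enzymes were above their means in liver 4 (38.1% of expressed genes), with a median of 0.02, and 8 of 10 in liver 2 (51.7%), with a median of 0.11, so that liver 2 and not liver 4 was the higher. With median-ratio scaling the medians of livers 2 and 4 were both 0.08. In these livers 6 and 9 of 10 enzymes were then above their means (48.1% and 54.0% of expressed genes). On the deposited scale, in liver 3 the enzymes lay lower by a median of -0.17, with 2 of 10 above their means, against 47.0% of expressed genes and a median of -0.01. It was the lowest liver under median-ratio scaling and equal sums too, at -0.16 and -0.14. Each of these had 3 of 10 enzymes above their means (49.0% and 55.1% of expressed genes). On the deposited scale the 2 were Smpd1 (0.24) and Cers2 (0.17). The highest value lay in liver 4 for 5 of 10 enzymes (33.3% of expressed genes), in liver 2 for 3 (22.0%), in liver 3 for 2 (26.8%) and in liver 1 for 0 (17.9%). The lowest value lay in liver 3 for 6 of 10 (31.4% of expressed genes), in liver 1 for 3 (20.7%), in liver 2 for 1 (29.9%) and in liver 4 for 0 (18.1%). The 6 enzymes lowest in liver 3 were Degs1, Asah1, Ugcg, Sptlc2, Sgms1 and Cers6, from -0.17 for Degs1 to -0.36 for Sgms1. In liver 2, 6 of 10 enzymes were above their means (45.1% of expressed genes), with a median of 0.07, and in liver 1, 3 of 10 (47.2%), with a median of -0.07. The deviations of a gene sum to 0, so a low liver 3 raises the others. Without liver 2, the median deviations of livers 1, 3 and 4 were -0.05, -0.12 and 0.14. Without liver 3, those of livers 1, 2 and 4 were -0.10, 0.03 and 0.07. Without liver 4, those of livers 1, 2 and 3 were -0.04, 0.10 and -0.13.

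**Figure D3:**
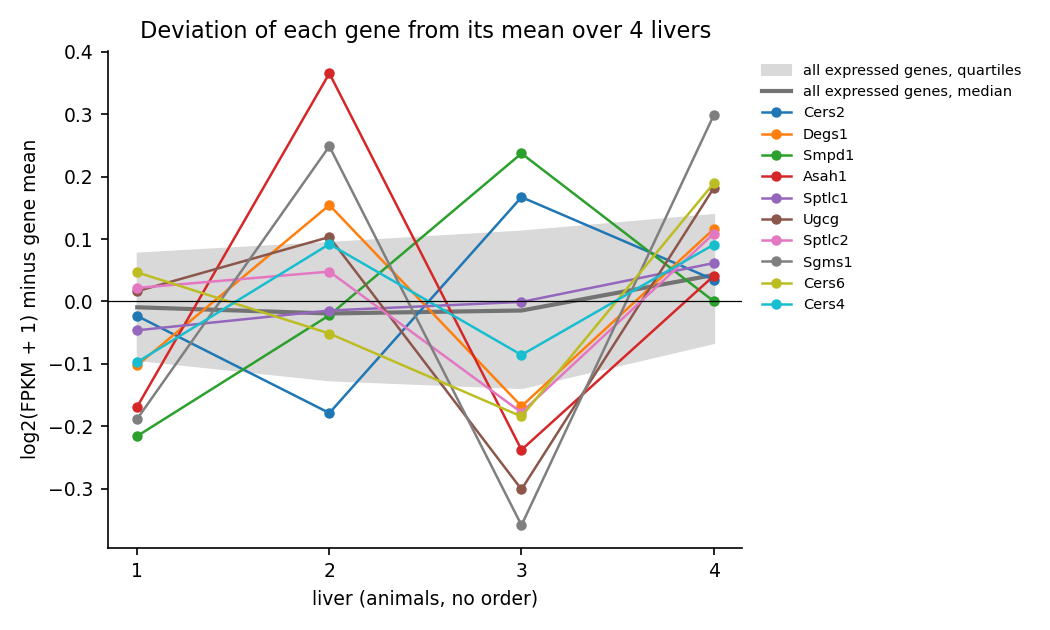
Deviation of each enzyme transcript from its mean over the 4 livers, on the log2(FPKM + 1) scale, with the median and quartiles of all expressed genes in grey. Lines join the values of a gene and imply no order of the animals. In liver 3, Smpd1 and Cers2 are high and the 6 transcripts from Degs1 to Sgms1 fall between -0.17 and -0.36.

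Base composition moved with the deviations of liver 3. The GC content of the longest coding transcript in GENCODE vM21 ranged over the enzymes from 43.5% for Asah1, Sgms1 and Cers4 to 55.7% for Smpd1, with 51.4% for Cers2 and 47.7% for Sptlc1. The 6 enzymes lowest in liver 3 had 43.5% to 46.5%. Over all expressed genes with a transcript (10183), split into 5 bins of GC content, the lowest bin had a median deviation of -0.12 in liver 3 and the highest bin had 0.11. In liver 2 the corresponding medians were 0.07 and -0.07, the opposite direction. In liver 1 they were -0.01 and -0.02, and in liver 4 0.07 and -0.01. When each deviation was taken relative to the median of expressed genes in the same 1 of 10 bins of GC content, the enzymes' median in liver 3 was -0.08, with 4 of 10 above 0, close to that of liver 1, at -0.06 with 3 of 10 above 0. In liver 2 it was 0.05, with 7 of 10 above 0. On that scale Sgms1 was at -0.25, Ugcg at -0.20, Smpd1 at 0.16 and Cers2 at 0.16 in liver 3, each with the same sign as before, while Cers4 went from -0.09 to 0.02 and Sptlc1 from -0.00 to 0.04. In liver 4 the median became 0.03, with 7 of 10 enzymes above 0. The gap in the ratio of Sptlc2 to Sptlc1 remained on that scale, with a gap ratio of 0.855 and a log2 value of -1.19 in liver 3. The range of the ratio of Sgms1 to Smpd1 fell from 2.03-fold to 1.73-fold. That of Asah1 to Smpd1 fell from 1.87-fold to 1.497-fold and its SD from 0.37 to 0.24. Asah1 and Smpd1 then deviated in the same direction in livers 1 (-0.16 and -0.21), 2 (0.31 and 0.07) and 4 (-0.03 and -0.03), and in opposite directions in liver 3 (-0.13 and 0.16).

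**Figure D4:**
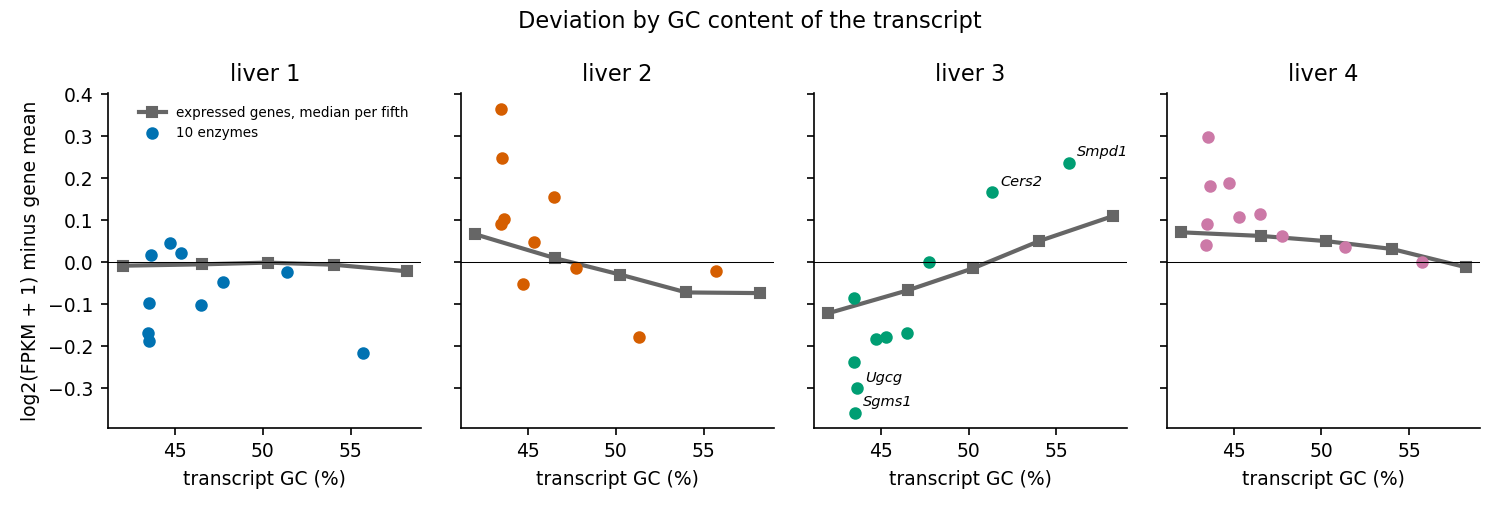
Deviation from the gene mean, on the log2(FPKM + 1) scale, against the GC content of the transcript, 1 panel per liver. Squares are medians of the expressed genes in 5 bins of GC content, and circles are the 10 enzymes. In liver 3 the squares run from -0.12 to 0.11, and the enzymes rise from Sgms1 (-0.36) to Smpd1 (0.24).

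Markers of other cells of the liver also differed between animals. The summed level of 7 macrophage and Kupffer cell markers was 180, 237, 177 and 254 FPKM in livers 1 to 4, mostly Lyz2, and 1, 7, 1 and 6 of the 7 were above their means. On the deposited scale, Degs1, Asah1, Sgms1 and Cers4 were likewise above their means in livers 2 and 4 and below in livers 1 and 3. The other 6 enzymes were not. Relative to GC content, Degs1 and Sgms1 kept the signs of those 4 enzymes. Asah1 was below 0 in liver 4, at -0.03 against 0.04 before, and Cers4 above 0 in liver 3, at 0.02. The markers were not taken relative to GC content, and the share of all expressed genes with this pattern was not computed. The 7 stellate cell and fibroblast markers summed to 259.6, 328, 207 and 237 FPKM, mostly Dcn, and 6, 6, 1 and 1 of the 7 were above their means, so that livers 3 and 4 were both low. The 6 sinusoidal endothelial markers summed to 42.7, 55.4, 46.2 and 54.3 FPKM, higher in livers 2 and 4 as the macrophage markers were. All of these 20 markers were above 0 in every liver. The 6 lymphocyte markers summed to 3.72 to 4.61 FPKM and the 4 neutrophil markers, 3 of them above 0 in every liver, to 10.4, 18.6, 11.5 and 8.33 FPKM, highest in liver 2. The 4 cholangiocyte markers summed to 19.3, 21.9, 20.3 and 17.6 FPKM, and the erythroid markers, mostly Hba-a1, to 1076, 829, 427 and 705 FPKM. That sum was lowest in liver 3, where another of these markers, Alas2, had its highest value, at 64.0 FPKM. The hepatocyte markers summed to 37335, 33470, 33714 and 45077 FPKM, highest in liver 4. In whole tissue, fewer cells of a type and less RNA per cell cannot be told apart, and the part of cell composition in the values of the enzymes was not tested.

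The other genes of the pathway were taken from 4 lists. They held 64 symbols, and the table had 61 of these, 46 of them expressed. Across these 46, the median SD was 0.17 (0.16 over expressed genes), and 15 had a highest value at least 1.5 times the lowest (28.4% of expressed genes), near the shares over all genes. In liver 3, 11 of 46 were above their means (47.0% of expressed genes), with a median of -0.10 (-0.01), and 28 of 46 had their lowest value (31.4%). Without liver 2, 9 of 46 were above their means in liver 3, with a median of -0.08, and without liver 3 the median SD was 0.13. Relative to genes of like GC content the median in liver 3 was -0.12, again with 11 of 46 above 0. In liver 2, 31 of the 46 were above their means (45.1% of expressed genes), and in liver 4, 30 (60.8%), the latter near the share over all genes.

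Among the other genes of de novo synthesis, 7 of 12 in the table were expressed. Ormdl3, an inhibitor of serine palmitoyltransferase, was the highest at 57.1 ± 5.59 FPKM (SD, n = 4), with 49.6, 56.7, 62.9 and 59.1 FPKM in livers 1 to 4. Sptssa, a small activating subunit of that enzyme, had 42.3 ± 7.20 FPKM, above Sptlc1 and Sptlc2, while its relative Sptssb was listed at 0 in all livers. Rtn4, whose product also restrains serine palmitoyltransferase, had 32.9 ± 6.10 FPKM (SD, n = 4). Kdsr, the reductase after serine palmitoyltransferase, was at 4.45, 5.16, 3.01 and 4.64 FPKM, lowest in liver 3. In liver 2, 6 of these 7 genes had their highest value (22.0% of expressed genes), and in liver 3, 5 of 7 had their lowest (31.4%).

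Among the other sphingomyelin genes, 7 of 9 in the table were expressed. Smpdl3a, a relative of acid sphingomyelinase, had 38.01 ± 7.002 FPKM (SD, n = 4) and was high in livers 2 and 4, at 43.2 and 44.5 FPKM, against 34.3 and 30.004 FPKM in livers 1 and 3. Smpd2, a neutral sphingomyelinase, had 15.9 ± 0.855 FPKM and Col4a3bp, the ceramide transfer protein, 9.97 ± 1.02 FPKM (each SD, n = 4). Smpd3, another neutral sphingomyelinase, was at 3.57, 3.46, 5.52 and 4.52 FPKM, highest in liver 3 as Smpd1 was. Sgms2, the sphingomyelin synthase also found at the plasma membrane, was lowest in liver 3, at 5.44 FPKM. Its mean of 7.05 FPKM was above that of Sgms1, but in liver 2 Sgms1 was the higher, at 7.23 against 7.10 FPKM. Samd8, which makes a sphingomyelin analogue, was at 5.52, 6.05, 3.85 and 4.62 FPKM, lowest in liver 3.

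Of the glycosphingolipid genes, 18 of 21 in the table were expressed. Psap, the precursor of the saposins that help lysosomal hydrolases act on sphingolipids, had 278 ± 18.5 FPKM (SD, n = 4), a level above that of Cers2. St3gal5, which makes the ganglioside GM3, was at 99.1, 136, 85.8 and 117 FPKM in livers 1 to 4, high in livers 2 and 4. B4galnt1, which extends gangliosides, had 44.98 ± 2.74 FPKM (SD, n = 4). Gal3st1, a sulfotransferase of sulfatide synthesis, had the widest SD (0.39), at 8.02, 8.72, 4.97 and 10.1 FPKM and lowest in liver 3. Liver 3 held the lowest value for 12 of these 18 genes (31.4% of expressed genes).

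Of the genes of sphingosine and sphingosine 1-phosphate, 14 of 19 were expressed. Aldh3a2, the aldehyde dehydrogenase that oxidises the aldehyde from sphingosine 1-phosphate cleavage and acts on other fatty aldehydes, was the highest gene of all 4 lists at 334 ± 35.97 FPKM (SD, n = 4). Apom, which carries sphingosine 1-phosphate in plasma lipoproteins, had 183 ± 17.6 FPKM and Sgpp1, a sphingosine 1-phosphate phosphatase, 26.4 ± 2.97 FPKM (each SD, n = 4). Acer2, the alkaline ceramidase of the Golgi, was at 4.19, 5.82, 2.84 and 3.32 FPKM, highest in liver 2 as Asah1 was. Of the receptors, S1pr1 was at 11.2, 10.99, 14.7 and 16.2 FPKM, higher in livers 3 and 4, and S1pr5 at 2.02, 2.01, 2.48 and 3.91 FPKM, highest in liver 4.

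**Figure D5:**
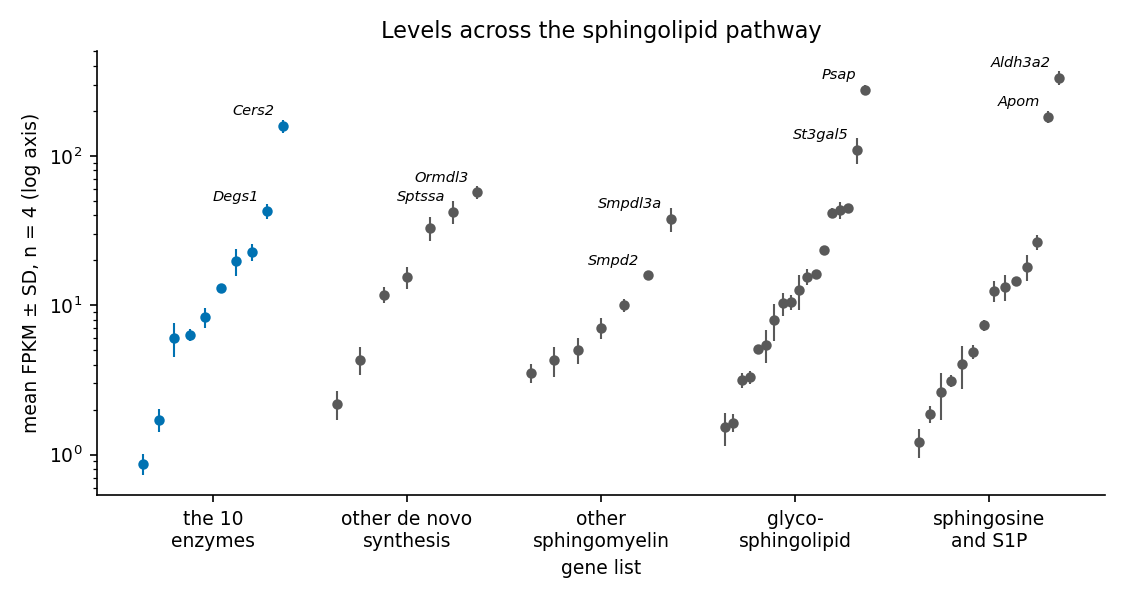
Mean FPKM with SD (n = 4), on a log axis, for the 10 enzymes and for the expressed genes of 4 further lists of the sphingolipid pathway (S1P, sphingosine 1-phosphate). Genes are ordered by level within a list. Aldh3a2 (334 FPKM), Psap (278 FPKM) and Apom (183 FPKM) lie above Cers2 (159 FPKM).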

How the data were processed

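RNA sequencing of poly(A)-enriched libraries from 4 livers was deposited by the authors as 1 table of genes. The submitters' processing notes name FastQC 0.10.1, Trim Galore 0.6.3, cutadapt, STAR 2.7.6a, Cufflinks 2.2.1 and the build mm10, without their roles. The deposited values were taken as FPKM from their behaviour (not whole, unequal sums) and the Cufflinks form of the identifiers, since the header states no unit. Columns were matched to samples by the sample descriptions, with 0 left over, and 1 was added to each start coordinate, after which the starts of Smpd1, Ugcg and Cers4 equal those of RefSeq. Depth was read from genes with 1 transcript of over 800 bases, where FPKM times length less 200 bases clusters at the worth of 1 fragment. Taking off 0 to 300 bases gave 17400000 to 21200000 fragments, so the estimate is approximate.

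SDs, deviations and gap ratios were computed on log2(FPKM + 1), which understates differences of low genes, and ratios on plain FPKM, with Python 3.11.15, pandas 2.3.3 and numpy 2.4.6. The steps were tested on simulated data. With 1 group of 4, no comparison between groups was possible, and no p-value was computed. The labels do not say whether samples came from separate cages or days. GC content came from GENCODE vM21 transcripts, which covered 96.6% of expressed genes, and the windows before annotated starts from RefSeq. The enzymes and lists were chosen with earlier results of these data known. Named pathway genes are the 3 highest by mean and the 3 with the largest SD in each list, of which 1 is not reported here. Sptlc3, Sptssb, Cers3, Cers5 and Sgms2, as relatives of genes described, and Smpd4, Arsa and Cerk, for their gap ratios, fall outside this rule and were named after their values were seen. Alternatives were other pseudocounts, filters and scalings, each liver left out, and, added after the data were seen, the correction for GC content.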

Additional observations from a re-analysis of the deposited data

Results flagged for a closer look

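Of 67 quantities checked for 1 liver far from the other 3, 5 were past Dixon's 95% critical value, and chance flags about 1 in 20. The ratio of Sptlc2 to Sptlc1 had a gap ratio of 0.943, since liver 3 (0.423) lay below the other livers (0.509 to 0.515). The share of Cers3 among ceramide synthases had a gap ratio of 1.00, because Cers3 was listed at 0 outside liver 3, where 0.0360 FPKM comes to an estimated 2.14 fragments on a transcript of 3250 bases. Arsa, the lysosomal sulfatase that degrades sulfatide, had a gap ratio of 0.977, at 25.2 FPKM in liver 1, where the other livers had 23.01 to 23.1 FPKM. Cerk, the ceramide kinase, had a gap ratio of 0.883, at 2.24 FPKM in liver 2, where the other livers had 1.74 to 1.79 FPKM. Smpd4, a neutral sphingomyelinase, had a gap ratio of 0.831, at 2.76 FPKM in liver 2, where the other livers had 3.71 to 3.92 FPKM.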

How the results depend on the processing

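Of 164 recomputed values, 163 moved by less than 1 SD between livers (for an SD, its standard error, and for a count, a factor of 1.5). The exception was the mean log2 ratio of Cers2 to Cers6, 5.88 with a pseudocount of 1 against 6.55, since the pseudocount raises the low Cers6 most. Many of the 164 values could not have moved so far, so this count is a weak check. A mean over 4 livers cannot move by 1 SD when 1 liver is left out. Lifting the filter on low values left the recomputed values as they were. The enzymes' median deviation kept its sign in each liver under all 11 alternatives for that liver. In liver 3 it was -0.17, and -0.09 with a pseudocount of 5, -0.11 as a mean over the enzymes and -0.08 relative to GC content. In liver 4 it was 0.10, and 0.02 with the libraries scaled to equal sums, which raised liver 2 from 0.07 to 0.11. Leaving out a liver gave a median SD of 0.11 to 0.18, lowest without liver 3, and 0.12 relative to GC content. It gave a mean share of Cers2 of 96.8% to 97.3%. No enzyme passed the gap ratio under any of the 6 pseudocounts, filters and scalings tried, and with 3 livers it was not computed. Of all genes, 5.29% to 5.51% passed it, and 11.3% without a filter on low values. The filters only change which genes are counted, so they could not bring an enzyme past the limit. No paired analysis was possible because all livers belong to 1 group. The genes at the low end, Cers4 and Cers6, are the least well measured per base of transcript, and the depth itself is an estimate.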
